A study of Mus musculus with 40 samples.

Results

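Transcripts of 10 genes that mark red cells or platelets were followed through 40 libraries of sorted cells from mouse colon tumors, healthy colon and blood. The genes were taken by name out of 45706 measured genes, and each was found once in the deposited tables by its mouse Ensembl identifier. The 5 erythroid genes were the beta-globins Hbb-bs and Hbb-bt, the alpha-globins Hba-a1 and Hba-a2, and Alas2. The 5 platelet genes were Ppbp, Pf4, Itga2b, Gp9 and Treml1. None of them belongs to the lineages that the sorting gates were set to collect, so the question put to the data was how much of each transcript accompanied each sorted population.

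Tumor-bearing mice gave neutrophils and monocytes from tumor and from blood, healthy mice gave the same cells from blood only, and epithelial and stromal cells came from tumors and from healthy colon, with 4 libraries in each of the 10 groups. Tumor-bearing mice were Cdx2CreERT2 - Apc fl/fl animals, in which a tamoxifen-activated Cre under a Cdx2 promoter deletes Apc in gut epithelium, and they had received a single tamoxifen injection of 25 mg/kg at 8 to 10 weeks of age. Healthy mice were labelled C57Bl6, without transgene and without agent, and no age was used for them here. The strain labels of tumor-bearing mice run from C57Bl6/Sv129 to C57Bl6/Sv152, rising by 1 from library to library. Strain, transgene, tamoxifen and tumors therefore cannot be told apart in a comparison of tumor-bearing with healthy mice. Neutrophils were gated as CD45+ EpCAM- CD11b+ MHCII- Ly6G+ cells with low Ly6C, monocytes as Ly6G- cells with high Ly6C within the same CD11b+ MHCII- fraction, epithelial cells as CD45- EpCAM+ and stromal cells as CD45- EpCAM-. No red cell or platelet marker is named in these gates. Red cell lysis is described for blood, and enzymatic digestion for colon and tumor. Each library was made from 200000 to 500000 cells after RNA amplification, and the titles of 4 libraries name pooled animals.

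Red cells shed their nucleus as they mature and keep, for a time, the messenger RNA for hemoglobin, a tetramer of alpha and beta chains around heme. Alas2 encodes the erythroid form of the enzyme that starts heme synthesis. Platelets are fragments of megakaryocytes and also carry messenger RNA without a nucleus: Ppbp and Pf4 encode chemokines stored in their granules, Itga2b the alpha chain of the fibrinogen receptor, Gp9 a subunit of the receptor for von Willebrand factor, and Treml1 a membrane protein of their granules. Platelets can bind to leukocytes, and some tissue macrophages make Pf4.

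The libraries held between 10717873 and 38002939 counts, and mitochondrial genes took 5.34% to 83.9% of them. Neutrophil marker genes (S100a8, S100a9, Ly6g, Retnlg, Mmp8, Csf3r, Cxcr2, Lcn2) summed to 1972 to 20420 RPKM (reads scaled by gene length and library size) in neutrophil libraries. A set of 7 monocyte markers (Ly6c2, Ccr2, F13a1, Csf1r, Cd14, Fn1, Cx3cr1) summed to 384 to 820 RPKM in monocyte libraries, 53.6 to 184 RPKM in blood neutrophils and 381 to 1183 RPKM in tumor neutrophils. Tumor stromal replicates 1 and 2 went against their label: their endothelial markers (Pecam1, Cdh5, Kdr, Tek, Emcn, Cldn5, Plvap) summed to 4.58 and 3.82 RPKM, within or below the 4.36 to 4.85 RPKM of tumor epithelial cells, whereas replicates 3 and 4 had 141 and 145 RPKM. Epithelial markers summed to 150 and 88.7 RPKM in the first pair and to 33.7 and 21.7 RPKM in the second. Fibroblast markers (Col1a1, Col1a2, Col3a1, Dcn, Lum, Pdgfra) reached only 5.97 to 24.0 RPKM in tumor stromal libraries against 355 to 2010 RPKM in healthy stromal libraries. The labels give no sex, but Xist, the RNA that coats the silenced X chromosome of female cells, split the libraries into 18 with at least 3.66 RPKM and 22 with at most 0.146 RPKM. The titles tie 15 animals to more than 1 library, and for 4 of them, all tumor-bearing, they name libraries of both Xist classes. Some animals gave libraries to several groups and nothing else states how libraries relate, so p-values measure the spread between these libraries only.

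The coding sequences of the globin copies differ too little for short reads to be assigned freely, which sets how the 4 hemoglobin genes can be read. GENCODE coding sequences on the GRCm38.p6 (mm10) assembly gave C381T as the only change from Hba-a1 to Hba-a2 over 429 coding bases (99.8% identity), counted from 1 at the first coding base. Of 380 windows of 50 bases, 331 (87.1%) were shared between these coding sequences. Untranslated regions were not compared. C417T was the only change from Hbb-bs to Hbb-bt over 444 coding bases, with 367 of 395 windows (92.9%) shared. The 49 bases around each change are shown because they carry the only coding difference within a pair, marked by the capital.
Hba-a1: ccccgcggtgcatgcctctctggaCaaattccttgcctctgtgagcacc
Hba-a2: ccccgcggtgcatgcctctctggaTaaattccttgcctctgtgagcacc
Hbb-bs: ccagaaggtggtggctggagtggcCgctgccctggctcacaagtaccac
Hbb-bt: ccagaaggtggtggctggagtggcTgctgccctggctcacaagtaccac

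The counts mirrored this identity. In 34 libraries with at least 100 beta-globin counts, Hbb-bt took 46.7% to 51.6% of them (median 48.6%), and in 29 libraries Hba-a2 took 50.0% to 50.7% of alpha-globin counts (median 50.3%). The 4 genes are therefore read here as 2 measurements, 1 for beta and 1 for alpha, and values of Hbb-bs and Hba-a1 stand for their pairs below. Alpha-globin made up 19.7% to 84.2% of the counts on all 4 genes in 36 libraries, with a median of 29.0%. In blood the median was 30.6% (n = 15) and in stromal cells 30.3%. The embryonic beta-type genes Hbb-y and Hbb-bh1, neighbors of Hbb-bs, held 1.72 to 2.85 and 1.89 to 3.19 counts per 100 counts of Hbb-bs over 31 libraries, a nearly fixed ratio. Whether their reads came from Hbb-bs was not tested.

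The beta-globins lie on the minus strand of chromosome 7, Hbb-bs (ENSMUSG00000052305) at 103826534 to 103828096 and Hbb-bt (ENSMUSG00000073940) at 103812524 to 103813996, with 3 exons each. Hba-a1 (ENSMUSG00000069919) and Hba-a2 (ENSMUSG00000069917) lie on the plus strand of chromosome 11 at 32283511 to 32284465 and 32296489 to 32297298, also with 3 exons each. Alas2 (ENSMUSG00000025270), with 11 exons at 150547375 to 150570638 on the X chromosome, overlaps Apex2 and Mir3620 on the other strand. The sources do not state that counting used the strand, so reads of Alas2 and of Apex2 in the overlap cannot be told apart. Ppbp (ENSMUSG00000029372) and Pf4 (ENSMUSG00000029373) are neighbors on the plus strand of chromosome 5, at 90768518 to 90770063 and 90772435 to 90773383, with 3 exons each. Itga2b (ENSMUSG00000034664, 30 exons) is on chromosome 11 at 102453297 to 102470122, Gp9 (ENSMUSG00000030054, 2 exons) on chromosome 6 at 87778072 to 87779768, and Treml1 (ENSMUSG00000023993, 6 exons) on chromosome 17 at 48359916 to 48367176.

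The 250 bases before the RefSeq start of Ppbp (chr5:90768268-90768517, plus strand, GRCm38.p6) and of Pf4 (chr5:90772185-90772434, plus strand) are shown because these neighboring chemokine genes had a common pattern in blood. Capitals mark the letters GGAAGT, the core read by Ets factors, here as ACTTCC on the other strand, and TATAAA.
Ppbp: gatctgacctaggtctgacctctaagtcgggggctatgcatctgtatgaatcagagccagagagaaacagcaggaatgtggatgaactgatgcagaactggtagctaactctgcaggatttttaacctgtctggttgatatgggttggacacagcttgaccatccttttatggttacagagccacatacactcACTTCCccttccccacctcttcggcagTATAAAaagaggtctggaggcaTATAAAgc
Pf4: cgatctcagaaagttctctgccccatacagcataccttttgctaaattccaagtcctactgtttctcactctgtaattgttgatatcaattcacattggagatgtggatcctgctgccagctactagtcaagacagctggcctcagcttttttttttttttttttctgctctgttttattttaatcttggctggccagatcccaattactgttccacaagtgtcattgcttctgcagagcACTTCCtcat
Searched on both strands, GGAAGT was present in this window of 4 of the 10 genes, namely Ppbp, Pf4, Itga2b and Gp9, and in 19.7% of 32817 promoter windows of the same length. AGATAA, letters bound by GATA factors, was present for Hbb-bs and Alas2 and in 9.99% of all windows. TATAAA was present for Ppbp, Hbb-bt and Alas2 and in 12.4% of all windows. These matches are descriptions of the letters only.

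Hemoglobin was abundant in blood and stromal libraries and scarce in tumor monocytes. The highest group median of Hbb-bs was in tumor stromal cells, with 269 RPKM, followed by blood neutrophils of tumor-bearing mice (131), blood monocytes of healthy mice (130.1), healthy stromal cells (78.3), blood monocytes of tumor-bearing mice (58.0) and blood neutrophils of healthy mice (52.2). Lower medians were found in tumor epithelial cells (17.8), tumor neutrophils (4.06), healthy epithelial cells (1.92) and tumor monocytes (0.311). Libraries of each pair of neighbors in this order overlapped. The median share of all counts taken by the 4 hemoglobin genes was 0.252% in tumor and 0.0972% in healthy stromal cells, 0.0774% to 0.162% in the blood groups, 0.0115% in tumor and 0.00135% in healthy epithelial cells, 0.00503% in tumor neutrophils and 0.00052% in tumor monocytes. In single libraries the 4 genes ranged from 2.13e-05% in healthy epithelial replicate 2 (5 counts, 95% Wilson interval 9.09e-06 to 4.98e-05%) to 1.39% in tumor stromal replicate 3 (1.39 to 1.40%). Such intervals cover counting error only. In bulk libraries, fewer cells of a type and less RNA per cell cannot be told apart.

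**Figure D1:**
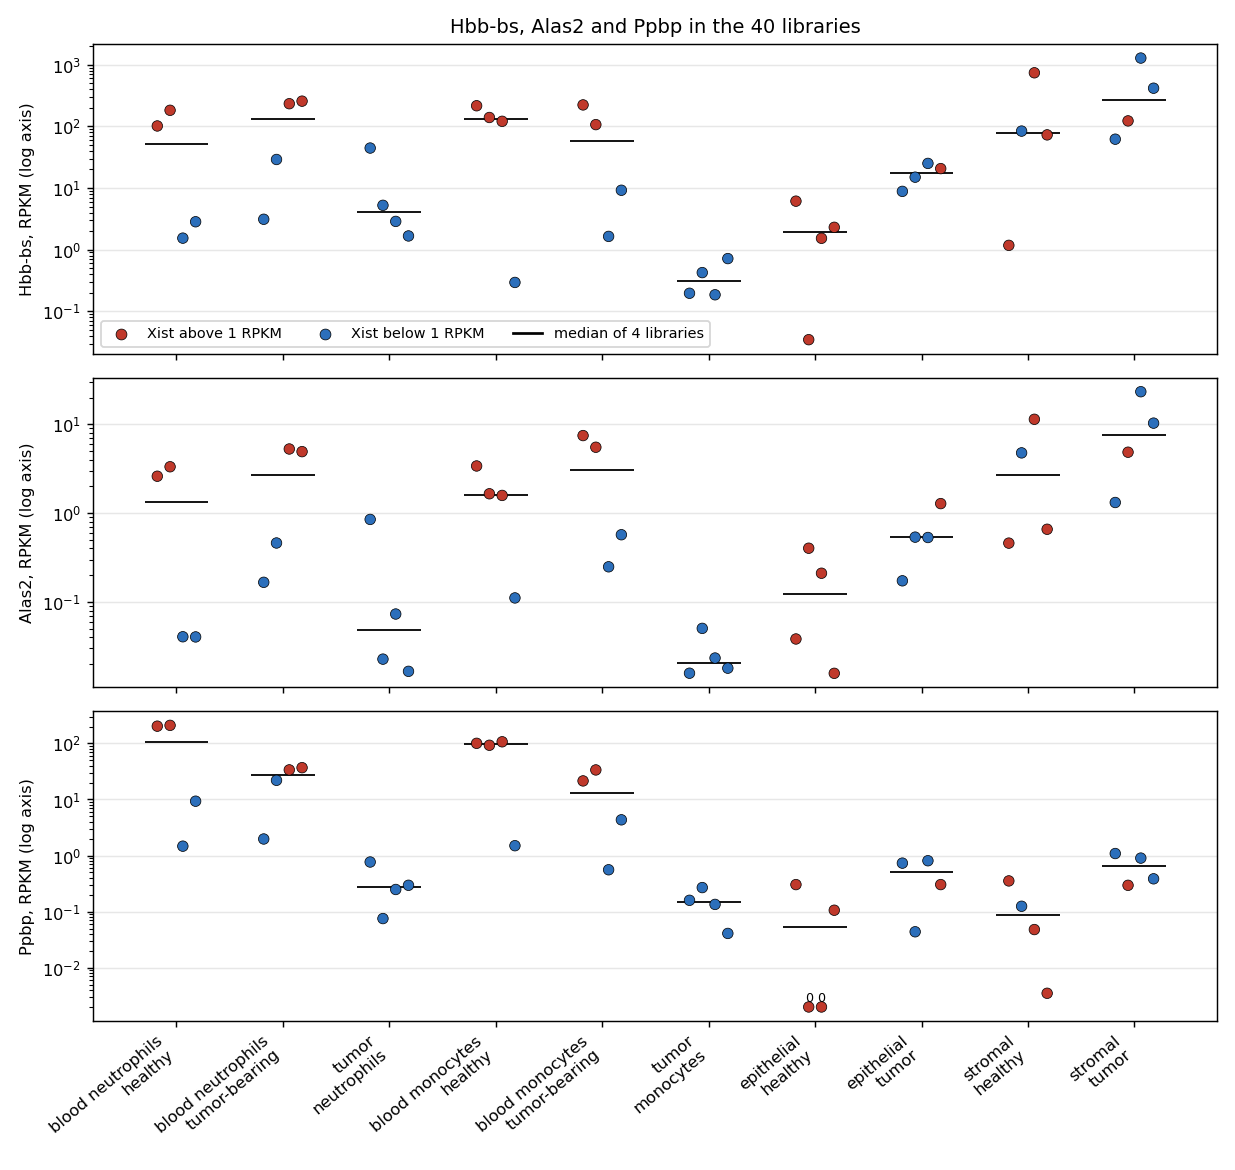
RPKM of Hbb-bs, Alas2 and Ppbp on a log axis in the 4 libraries of each of the 10 groups, with a bar at the group median, and with libraries above 1 RPKM of Xist in red and those below in blue (values of 0 are drawn at the foot of the axis). Hbb-bs is high in the blood libraries drawn in red and in most stromal libraries, whereas Ppbp is high in blood only.

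Blood libraries of the same group lay far apart. In blood neutrophils of healthy mice Hbb-bs measured 102, 182, 1.54 and 2.84 RPKM in replicates 1 to 4. In blood neutrophils of tumor-bearing mice it measured 3.11, 29.0, 233 and 256 RPKM. In both groups a pair of libraries was high and a pair was low, so the groups overlapped over nearly their whole range. Blood monocytes of healthy mice had 216, 139, 121 and 0.294 RPKM, with a single low library. Blood monocytes of tumor-bearing mice had 223, 107, 1.64 and 9.20 RPKM, again split into a high and a low pair.

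Within the tumor, the sorted neutrophils held more hemoglobin transcript than the sorted monocytes. Tumor neutrophils had 44.5, 5.24, 2.87 and 1.67 RPKM of Hbb-bs, with replicate 1 far above the others. Tumor monocytes had 0.196, 0.425, 0.186 and 0.717 RPKM, all below the lowest tumor neutrophil library. The summed RPKM of epithelial markers (Epcam, Krt8, Krt20, Cdh1, Vil1, Cdh17, Lgals4, Phgr1) in the same tumor neutrophil libraries was 115, 30.3, 25.5 and 8.99, in the same order as Hbb-bs. In tumor monocytes these markers summed to 1.54, 25.5, 8.81 and 7.25 RPKM, and in blood to at most 1.47 RPKM. The part of other tumor cells in the hemoglobin values was not tested.

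Stromal libraries included those with the most hemoglobin transcript and spread widely. Healthy stromal cells had 1.18, 83.8, 740 and 72.8 RPKM of Hbb-bs and tumor stromal cells 61.9, 123, 1282 and 416 RPKM. Replicate 3 was the highest in both groups. Tumor stromal libraries also held 22.8 to 1613 RPKM of neutrophil markers, against 6.76 to 47.3 RPKM in healthy ones, and immature neutrophil markers were highest in tumor replicate 3, at 43.4 RPKM. Their part in the hemoglobin values was not tested. Healthy epithelial cells had 6.12, 0.0347, 1.53 and 2.31 RPKM, and tumor epithelial cells 8.82, 15, 25.1 and 20.7 RPKM. The 4 tumor epithelial libraries were all above the 4 healthy ones.

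The alpha-globin gene Hba-a1 split the blood libraries in the same way. Blood neutrophils had 107, 64.4, 0.393 and 1.52 RPKM in healthy and 1.24, 9.57, 248 and 104 RPKM in tumor-bearing mice. Blood monocytes had 73.0, 134, 54.7 and 0.245 RPKM in healthy and 114, 134, 1.03 and 3.81 RPKM in tumor-bearing mice. The libraries high for beta-globin were high for alpha-globin in all 4 blood groups. Tumor neutrophils had 14.4, 6.59, 2.31 and 0.956 RPKM and tumor monocytes 0.208, 0.343, 0.976 and 0.221 RPKM, so that for Hba-a1 the lowest tumor neutrophil library lay just under the highest tumor monocyte library. Stromal cells had 0.552, 112, 315 and 38.4 RPKM in healthy colon and 18.9, 36.5, 787 and 170 RPKM in tumors.

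Alas2 was much lower than the globins and was high in the same libraries. Blood neutrophils had 2.61, 3.33, 0.0405 and 0.0403 RPKM in healthy mice and 0.166, 0.461, 5.28 and 4.93 RPKM in tumor-bearing mice. Blood monocytes had 3.40, 1.65, 1.58 and 0.111 RPKM in healthy mice and 7.48, 5.53, 0.249 and 0.571 RPKM in tumor-bearing mice. The split into high and low libraries was that of Hbb-bs. Stromal cells reached 11.4 RPKM in healthy replicate 3 and 23.3 RPKM in tumor replicate 3, and tumor monocytes stayed between 0.0157 and 0.0503 RPKM. Per 100 RPKM of beta-globin (Hbb-bs plus Hbb-bt), Alas2 had medians of 1.04 in blood, 1.07 in stromal and 0.984 in epithelial libraries. In healthy epithelial replicate 2, Alas2 had 59.4 counts beside 2.17 counts of Hbb-bs, and the overlap with Apex2 limits that value.

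Platelet transcripts had a different distribution, with Ppbp high in blood and low elsewhere. Blood neutrophils of healthy mice had 203, 210, 1.47 and 9.32 RPKM of Ppbp and those of tumor-bearing mice 1.98, 22.0, 33.7 and 36.9 RPKM. Blood monocytes of healthy mice had 100.3, 92.6, 107 and 1.5 RPKM and those of tumor-bearing mice 21.4, 33.6, 0.559 and 4.34 RPKM. The high libraries of healthy mice all lay above the highest library of tumor-bearing mice, and the low libraries of both overlapped. Tumor neutrophils had 0.768, 0.0754, 0.249 and 0.295 RPKM and tumor monocytes 0.159, 0.269, 0.135 and 0.0409 RPKM. Healthy stromal cells had 0.353, 0.125, 0.0480 and 0.00351 RPKM, tumor stromal cells 1.09, 0.295, 0.902 and 0.385 RPKM, and no epithelial library exceeded 0.809 RPKM.

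Pf4 followed Ppbp in blood at a lower level and departed from it in tumor monocytes. Blood neutrophils had 10.8, 11.9, 0 and 0.193 RPKM in healthy mice and 0.0524, 0.750, 3.45 and 1.12 RPKM in tumor-bearing mice. Blood monocytes had 4.77, 11.9, 4.71 and 0 RPKM in healthy mice and 1.32, 0.987, 0.0506 and 0.216 RPKM in tumor-bearing mice. In each blood group the libraries high for Ppbp were the libraries high for Pf4, except that replicate 2 of blood neutrophils of tumor-bearing mice, at 22.0 RPKM of Ppbp, had only 0.750 RPKM of Pf4. Tumor monocytes had 0, 0.732, 0.364 and 1.69 RPKM of Pf4, above their own Ppbp in 3 of 4 libraries, and tumor neutrophils 0.478, 0, 0.0272 and 0.174 RPKM.

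The platelet surface genes were low throughout. Gp9 had 7.04, 2.53, 0.205 and 0.524 RPKM in blood neutrophils and 2.36, 3.63, 1.11 and 0.0246 RPKM in blood monocytes of healthy mice. In tumor-bearing mice it had 0.0806, 0.252, 0.986 and 2.12 RPKM in blood neutrophils and 1.48, 0.438, 0.164 and 0.0802 RPKM in blood monocytes. The high and low libraries were again those of Ppbp, apart from the same replicate 2 of blood neutrophils of tumor-bearing mice. Itga2b reached 0.495 and 1.105 RPKM in healthy blood neutrophil replicates 1 and 2 and at most 0.217 RPKM in blood neutrophils of tumor-bearing mice. It was not confined to blood: healthy stromal cells had 0.127 to 0.250 RPKM (median 0.207), beside a median of 0.205 RPKM in healthy blood monocytes. The median of Gp9 was 0.241 RPKM in healthy stromal cells and 0.301 RPKM in blood monocytes of tumor-bearing mice. Treml1 was at 1.88, 0.840, 0.0406 and 0.0564 RPKM in healthy blood neutrophils and at most 0.0775 RPKM in any library from tumor or colon. Healthy blood neutrophils held 25.9 to 559 counts of Itga2b and 4.39 to 123 of Treml1, and in epithelial and stromal libraries and tumor monocytes Treml1 had at most 2.68 counts, so that differences between those libraries were not detectable at this depth.

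In blood, the split into high and low libraries coincided with Xist. The 9 blood libraries above 1 RPKM of Xist had 102 to 256 RPKM of Hbb-bs (median 182), and the 7 below it had 0.294 to 29.0 RPKM (median 2.84), a ratio of medians of 64.3. The ranges did not overlap for 6 of the 10 genes, namely the 4 globins, Alas2 and Pf4, whereas 0.301% of 7305 genes (22 genes) were higher in the class above without overlap and 0 were lower. Alas2 had 1.58 to 7.48 RPKM in the class above and 0.0403 to 0.571 RPKM in the class below. Pf4 had 0.987 to 11.9 against 0 to 0.750 RPKM. Ppbp overlapped narrowly, with 21.4 to 210 against 0.559 to 22.0 RPKM, and Gp9 had 0.438 to 7.04 against 0.0246 to 0.524 RPKM. The other genes without overlap included Hba-ps4, Hbb-y, Hbb-bh1, Hbb-bh3, Bpgm, which makes the red cell metabolite that lowers oxygen affinity, the X-linked Kdm5c and Xist itself. The Xist classes were noticed in these same values, through the genes most like hemoglobin, so no test is given for them.

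**Figure D2:**
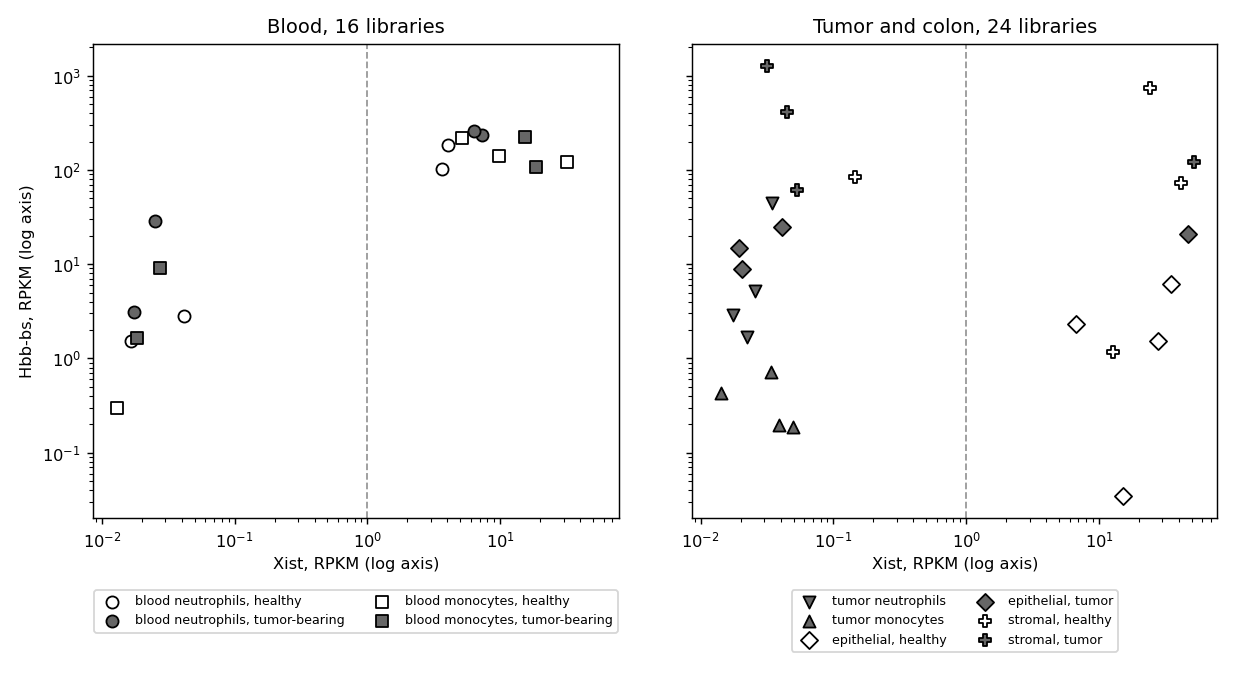
Hbb-bs against Xist, both in RPKM on log axes, for the 16 blood libraries (left) and the 24 libraries from tumor and colon (right), with a dashed line at 1 RPKM of Xist. On the left the 9 libraries right of the line all lie above the 7 libraries left of it, and on the right the classes overlap.

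The 6 genes without overlap over all blood libraries cannot overlap in any part of them. Counts within each blood population and each kind of mouse therefore repeat that split and add only the remaining genes. Ranges of the Xist classes did not overlap for 8 of the 10 genes in blood neutrophils (4 against 4 libraries), where 2.56% of 5748 genes were higher without overlap, and for 8 in blood monocytes (5 against 3), where 10.4% of 8032 genes were. In healthy blood (5 against 3) they did not overlap for 8, beside 3.76% of 7372 genes, and in blood of tumor-bearing mice (4 against 4) for 7, beside 2.03% of 7151 genes. Among epithelial and stromal libraries together they did not overlap for 0 of the 10 genes (9 against 7), and for 0 in each fraction alone. Within single groups, 3 genes in tumor epithelial cells and 2 each in healthy and tumor stromal cells did not overlap, each with a single library in 1 class. The share of all genes was not computed for colon tissue. All 8 tumor neutrophil and tumor monocyte libraries were in the class below, so a comparison of tumor with blood leukocytes also compares Xist classes. In healthy blood, the neutrophil libraries of the class above and monocyte replicate 3 share animals by their titles, as do the neutrophil libraries of the class below and monocyte replicate 4. In tumor-bearing mice, titles that name the same animal held opposite levels, with 3.11 RPKM of Hbb-bs in blood neutrophil replicate 1 and 223 RPKM in blood monocyte replicate 1, and with 256 and 9.20 RPKM in replicate 4 of both. Transcripts of the Y-linked gene Eif2s3y were also present in some libraries of the class above, at 4.35 and 1.86 RPKM in blood monocyte replicates 1 and 2 of healthy mice. Sex, day of collection and handling of these libraries cannot be told apart with the labels given.

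Tumor neutrophils were compared with blood neutrophils of tumor-bearing mice to ask which transcripts differ once the cells are in the tumor. Ppbp was lower in tumor neutrophils, by −6.24 ± 0.93 on the log2 scale (fold change ± SE, edgeR adjusted p = 0.00165). It was the only 1 of 9 tested members to be called, where a call needs an adjusted p under 0.05 and a log2 fold change past 1.5, and 4.41% of all 13674 genes tested were called lower. All 9 had negative fold changes (median −3.50) and an unadjusted edgeR p under 0.05. The share of all genes with such an unadjusted p is not given here. After adjustment Hbb-bs at −3.50 ± 1.30 (adjusted p = 0.0896), Hba-a1 at −3.95 ± 1.38 (0.0722), Alas2 at −3.81 ± 1.39 (0.0840) and Pf4 at −3.24 ± 1.33 (0.120) did not pass in edgeR. DESeq2 called all 9. Without blood neutrophil replicate 1, the low library of an animal whose monocyte library was high, 5 were called. The shares of all genes called in those alternative fits are not given here. With the Xist class as a term in the fit, Ppbp was at −5.14 ± 0.87, Hbb-bs at −0.33 ± 1.14 and Hba-a1 at 0.29. Because the classes were found through genes that vary with hemoglobin, such fits are given here and below as values only. Among libraries of the class below alone, tumor neutrophils had 0.0754 to 0.768 RPKM of Ppbp against 1.98 and 22.0 RPKM in blood, without overlap, and 1.67 to 44.5 RPKM of Hbb-bs against 3.11 and 29.0 RPKM, with overlap.

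The erythroid transcripts and Ppbp were lower in tumor monocytes than in blood monocytes of tumor-bearing mice, and the other platelet genes were not called or not tested. By edgeR, 6 of 8 tested members were called lower, beside 3.89% of all 15280 genes. Hbb-bs was at −7.50 ± 1.39 (log2 fold change ± SE, edgeR adjusted p = 0.0044), Hba-a1 at −6.86 ± 1.47 (0.0098), Alas2 at −6.53 ± 1.14 (0.0032) and Ppbp at −6.36 ± 1.17 (0.0042), and Hbb-bt and Hba-a2 had the values of their copies. Pf4 (0.34 ± 1.18) and Itga2b (−0.50 ± 0.94) were not called, and Gp9 and Treml1 passed no filter for low counts. With limma-voom, the tool of the study, 0 of the 6 were called, with adjusted p from 0.0771 for Alas2 to 0.196 for Hba-a1. With the Xist term, Hbb-bs was at −3.62 ± 0.66, Alas2 at −3.53 ± 0.56, Ppbp at −3.80 ± 0.79 and Hba-a1 at −2.22. Hba-a1 and Hba-a2 were no longer called with that term. Within the class below, Hbb-bs was at 0.186 to 0.717 RPKM in tumor monocytes and at 1.64 and 9.20 RPKM in blood monocytes, without overlap.

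**Figure D3:**
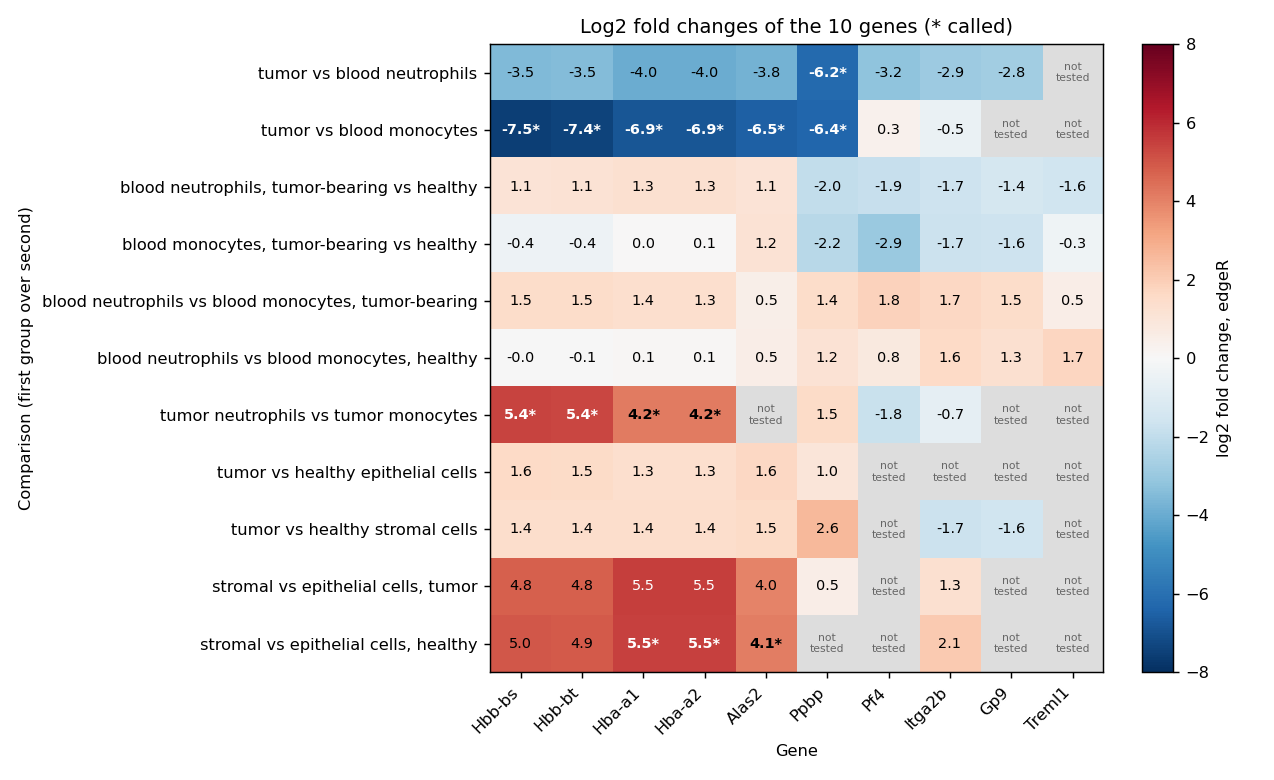
Log2 fold changes by edgeR of the 10 genes (columns) in 11 comparisons (rows), with an asterisk where the gene was called and grey where too few counts left it untested. The row of tumor against blood monocytes holds 6 asterisks and that of tumor against blood neutrophils 1, at Ppbp.

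Tumor neutrophils and tumor monocytes differed in hemoglobin but not detectably in platelet transcripts. Hbb-bs was higher in tumor neutrophils by 5.39 ± 1.03 (log2 fold change ± SE, edgeR adjusted p = 0.0108) and Hba-a1 by 4.17 ± 0.98 (0.0266), and with their copies they made 4 of 7 tested members called higher, beside 4.65% of all 15003 genes. The 7 monocyte markers were not lower in tumor neutrophils (median 961 RPKM) than in tumor monocytes (median 593 RPKM), and their part in the difference was not tested. Ppbp (1.5), Pf4 (−1.77) and Itga2b (−0.70) were not called. In 3 of the replicate numbers the titles name the same animal in both groups. With the replicate number as a block, 2 members were called, Hbb-bs at 4.61 ± 1.08 (edgeR adjusted p = 0.0461) and Hbb-bt, whereas Hba-a1 at 3.92 ± 1.13 (0.0958) and Hba-a2 were not. The difference between neutrophils and monocytes was not shown to depend on the site: for the change of that difference between tumor and blood, Hbb-bs was at 3.85 ± 1.81 (edgeR adjusted p = 0.236), and 0 of 10 tested members were called, with 1 at an unadjusted p under 0.05, beside 3.99% of all 17465 genes.

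Blood neutrophils of tumor-bearing and healthy mice were compared to ask whether the tumor alters circulating cells. By edgeR, 0 of 10 members were called, with 0 at an unadjusted p under 0.05, beside 4.01% of all 13360 genes. The 5 erythroid genes had log2 fold changes of 1.09 to 1.29 and the 5 platelet genes of −1.43 to −1.97, with Ppbp at −1.97 ± 1.23 (adjusted p = 0.396). The erythroid and platelet genes thus lay on opposite sides of 0 without a difference beyond the spread of the libraries. With the Xist term, Alas2 was at 1.70 ± 0.43, Hbb-bs at 1.86 ± 0.62 and Ppbp at −0.67. The 4 libraries of tumor-bearing mice also had 170 to 524 RPKM of immature neutrophil markers (Ngp, Camp, Ltf, Mpo, Elane, Prtn3, Chil3), against 4.15 to 15.7 RPKM in healthy mice, and their part in these values was not tested.

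In blood monocytes of tumor-bearing against healthy mice, 0 of 10 members were called by edgeR, with 1 at an unadjusted p under 0.05, beside 0.209% of all 15313 genes. Hbb-bs was at −0.39 ± 1.41, Alas2 at 1.15, Ppbp at −2.20 ± 1.18 and Pf4 at −2.95 ± 1.31 (adjusted p = 0.503). With the Xist term Hbb-bs was at 1.12 and Ppbp at −0.99, so that the sign for Hbb-bs depends on that term. The interaction of cell type and tumor in blood called 0 of 10 tested members, beside 0.969% of all 16817 genes.

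Among the 9 blood libraries of the class above, chemokine transcripts were ordered by kind of mouse. Ppbp was at 92.6 to 210 RPKM in 5 libraries of healthy mice and at 21.4 to 36.9 RPKM in 4 libraries of tumor-bearing mice. Pf4 was at 4.71 to 11.9 RPKM against 0.987 to 3.45 RPKM. Neither range overlapped, whereas Hbb-bs overlapped, with 102 to 216 against 107 to 256 RPKM. This subset was chosen after the values were seen and was not tested. The share of all genes without overlap between these libraries was not computed, and the mice also differ in strain, transgene and tamoxifen.

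Blood neutrophils and blood monocytes did not differ detectably in these transcripts, and by their titles they came only in part from the same animals. In tumor-bearing mice 0 of 10 members were called by edgeR, with log2 fold changes of 0.48 to 1.84 for neutrophils over monocytes and 1 unadjusted p under 0.05, beside 38.0% of all 14462 genes. In healthy mice 0 of 10 were called, with −0.05 to 1.73 and no unadjusted p under 0.05, beside 37.1% of all 15033 genes. With the Xist term, Hbb-bs was at 1.79 in tumor-bearing mice, and Ppbp was at 2.02 ± 0.48, Itga2b at 1.95 and Gp9 at 2.29 in healthy mice. Without that term and on log2(RPKM + 1), Ppbp in healthy mice was at −0.31.

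**Figure D4:**
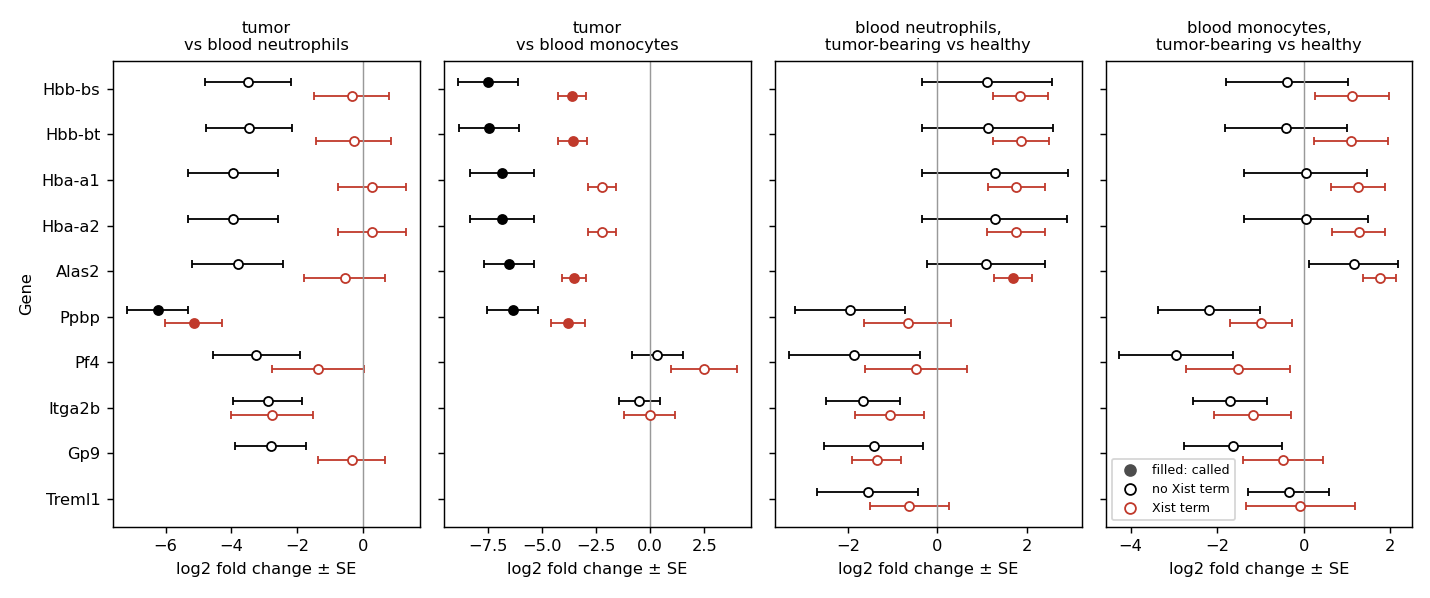
Log2 fold changes with standard errors by edgeR of the 10 genes without and with the Xist class as a term, in 4 comparisons of leukocytes, with filled symbols where the gene passed the threshold in that fit (the term was chosen from these values, so calls with it are no test). In tumor against blood neutrophils the globins move from about −3.5 to values near 0 while Ppbp stays at −5.14, and in tumor against blood monocytes Hbb-bs moves from −7.50 to −3.62.

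Stromal cells were compared with epithelial cells of the same tissue. In healthy colon, 3 of 6 tested members were called higher in stromal cells by edgeR, namely Hba-a1 (log2 fold change 5.46 ± 1.77, adjusted p = 0.0352), Hba-a2 (5.45) and Alas2 (4.11 ± 1.12, 0.0168), beside 19.4% of all 18468 genes. Hbb-bs was at 4.96 ± 1.83 (0.0587). Healthy stromal replicate 1, with 1.18 RPKM of Hbb-bs, overlapped the epithelial libraries, and without it 5 were called, whereas 1 was called without replicate 2 and 0 without replicate 3. With limma-voom, with the replicate block and with the Xist term 1 was called each. Without the filter for low counts, or without healthy epithelial replicate 1, 3 or 4, Hba-a1 and Hba-a2 were not called.

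In tumors, 0 of 7 tested members were called between stromal and epithelial cells, beside 0.0294% of all 16985 genes, which is 5 genes in all. An unadjusted edgeR p was under 0.05 for 5 members, and the share of all genes for that cut is not given here. Hbb-bs was at 4.79 ± 0.91 (edgeR adjusted p = 0.0616), Hba-a1 at 5.54 ± 1.15 (0.0663) and Alas2 at 4.00 ± 0.89 (0.0761). Without tumor stromal replicates 1 and 2, which lacked endothelial transcripts, the 5 erythroid genes were called, with Hbb-bs at 5.49 ± 0.44 (edgeR adjusted p = 8.88e-05), Hba-a1 at 6.31 ± 0.56 (0.000146) and Alas2 at 4.58 (0.00102). In that fit 22.6% of all 19784 genes were called in either direction. The removal was chosen after seeing the data, and it took out the lowest libraries of the group for Hbb-bs. They had 61.9 and 123 RPKM, beside 1282 and 416 RPKM in the libraries kept. By their titles the libraries kept share animals with tumor epithelial replicates 1 and 2, which the fit did not take into account. The interaction of cell type and tumor called 0 of 8 tested members, beside 15.1% of all 20901 genes.

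Tumor and healthy tissue were compared within each fraction. In epithelial cells 0 of 6 tested members were called by edgeR, with 0 at an unadjusted p under 0.05, beside 15.4% of all 16085 genes. The 6 fold changes were 0.99 to 1.64, the largest for Alas2 (1.64 ± 0.75, adjusted p = 0.153), and the RPKM of Hbb-bs did not overlap between the groups. All healthy epithelial libraries were in the Xist class above, and of the tumor ones only replicate 4, so Xist classes are largely compared as well. Mitochondrial genes took 48.6% to 83.9% of counts in healthy and 46.3% to 60.5% in tumor epithelial libraries. The call depended on the tool, since limma-voom called 2, with Hbb-bs at 4.19 ± 1.19 (adjusted p = 0.0232), and limma on log2(RPKM + 1) called the 4 globins, with Hbb-bs at 2.62 ± 0.55 (0.00227). The shares of all genes called by limma are not given here. In stromal cells 0 of 8 were called, with 1 at an unadjusted p under 0.05, beside 8.40% of all 19081 genes. Hbb-bs was at 1.40 ± 1.42 and Ppbp at 2.60 ± 1.02 (adjusted p = 0.151). The other platelet genes tested had the opposite sign, with Itga2b at −1.72 ± 0.90 and Gp9 at −1.60 ± 0.93. The RPKM of Itga2b did not overlap between the groups and was lower in tumors. Also without tumor stromal replicates 1 and 2, 0 members were called.

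The ratio of Ppbp to beta-globin was mostly higher in blood than in tissue, with overlap. Per 100 RPKM of beta-globin, Ppbp stood at 4.49 to 158 RPKM in the 15 blood libraries with at least 100 beta-globin counts (median 30.1). In 8 stromal libraries it stood at 0.00224 to 13.8 RPKM (median 0.0555) and in 7 epithelial libraries at 0 to 3.87 RPKM (median 1.5). Tumor stromal replicates 2 to 4 and healthy stromal replicate 3 reached the 102 to 256 RPKM of Hbb-bs of the high blood libraries, with little Ppbp. The other stromal libraries had less Hbb-bs, and healthy replicate 1 had the highest ratio, 13.8. Within blood, the ratio had a median of 43.5 in healthy mice (21.6 to 158, n = 7) and of 15.2 in tumor-bearing mice (4.49 to 35.3, n = 8), and tumor neutrophils had a median of 2.40 (0.623 to 8.17). Alas2 per 100 RPKM of beta-globin ran the other way, with 0.546 to 1.20 (median 0.732) in healthy blood and 0.742 to 7.01 (median 2.00) in blood of tumor-bearing mice, and both pairs of ranges overlapped.

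**Figure D5:**
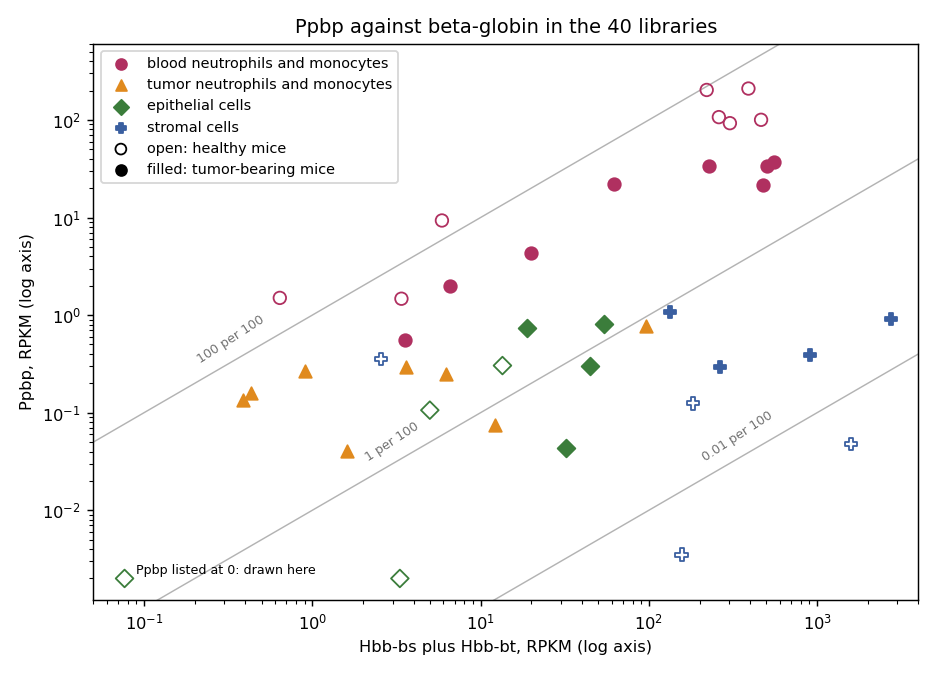
Ppbp against the sum of Hbb-bs and Hbb-bt, in RPKM on log axes, per library, with open symbols for healthy and filled symbols for tumor-bearing mice and with lines at 100, 1 and 0.01 RPKM of Ppbp per 100 RPKM of beta-globin. The blood libraries lie above the line of 1, from 4.49 to 158 per 100 in the 15 with at least 100 beta-globin counts, and stromal libraries have a median of 0.0555 per 100.

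Other genes of both lineages were read from 7 lists. Many of their members are also expressed by leukocytes, endothelium or epithelium, so the lists do not measure red cells or platelets alone. In tumor against blood neutrophils, where the median of all genes was 0.11, the other hemoglobin chains had 2 of 9 listed genes tested, at −3.40 (Hbb-bh1) and −3.44 (Hbb-y), and neither was called. In that comparison 11.9% of all genes were called higher and 4.41% lower. Platelet adhesion and agonist receptors had 1 gene called higher and 4 lower of 12 tested (median −1.46). Among the lower ones were Gp1ba (−3.20), which joins Gp9 in the von Willebrand factor receptor, and Itgb3 (−2.18), the partner of Itga2b. Platelet granule genes had 5 higher and 0 lower of 11 (median 1.12), beside 11.9% of all genes called higher, including Clu (5.09), Thbs1 (4.92) and Sparc (4.30), none of which is particular to platelets. Genes of platelet cytoskeleton and signaling had 3 higher and 5 lower of 16 (median −0.83), with Tmem40 at −3.04 and Rgs18 at −2.94.

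Of the erythroid lists in that comparison, heme synthesis and iron supply had 3 higher and 0 lower of 11 tested (median 0.23), beside the same 11.9% of all genes called higher, led by Tfrc (4.89), the transferrin receptor of dividing cells in general, and red cell membrane genes had none called of 6. Red cell transcription factors and late maturation genes had 1 called higher of 11, Car1 (9.31), a carbonic anhydrase that colon epithelium also makes. In tumor against blood monocytes (median of all genes −0.03), 7.76% of all genes were called higher and 3.89% lower. The receptor list had 1 higher and 3 lower of 11 (median −1.56), with Gp1ba at −3.93, F2rl2, a thrombin receptor, at −2.81 and Cd9 at 5.68. The granule list had 4 higher and 0 lower of 10 (median 2.74), with Thbs1 at 5.81, where 7.76% of all genes were called higher. The cytoskeleton list had 1 higher and 2 lower of 14, with the transcription factor Nfe2 at −3.33, the heme list 1 higher and 1 lower of 12 (Fech, the last enzyme of heme synthesis, at −1.94), the membrane list 2 higher of 6, and the maturation list none of 10.

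In blood of tumor-bearing against healthy mice, the lists had few calls. Neutrophils had 1 higher (Tmem40, 2.26) and 1 lower (Mylk, −3.04) among 16 cytoskeleton genes and none in the other 6 lists, and monocytes had none in any list, with a median of −1.53 over 15 receptors. Over all genes, 4.01% were called in neutrophils and 0.209% in monocytes, in either direction. Between healthy stromal and epithelial cells, 8 of 12 red cell membrane genes (median 3.22), 8 of 12 granule genes (median 4.04) and 9 of 16 platelet cytoskeleton genes (median 2.57) were called higher in stromal cells, none lower, beside 19.4% of all genes called higher and a median of 0.14 over all genes. They included Gypc (8.44), a glycophorin, Vwf (5.79) and Selp (7.26), proteins that endothelial cells store as well, and the smooth muscle gene Myl9 (4.25). Endothelial markers summed to 33.5 to 167 RPKM in these stromal libraries. The same lists had no gene called between tumor stromal and tumor epithelial cells.

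Genes with the most similar profile were found by correlation of log2(RPKM + 1) over libraries, among 8241 genes with a mean of at least 1 RPKM, as a description without a test, since the points share animals and amplification. Hemoglobin was taken as the mean log2(RPKM + 1) of the 4 genes, and platelet transcripts as that of the 5 platelet genes. Over all 40 libraries, hemoglobin was closest to Hba-ps4 (r = 0.985), Hbb-bh1 (0.959), Hbb-y (0.953) and Hbb-bh3 (0.951), which may count reads of the members, and then to Fech (0.734), Ube2l6 (0.730), Bpgm (0.721) and Ctla2a (0.707). Over the 16 blood libraries the genes after the globins were Tent5c (0.929), Kdm5c (0.879), Xist (0.867) and Bnip3l-ps (0.852). The platelet mean in blood was closest to Alox12 (0.968), the platelet lipoxygenase, then Ctla2a (0.945), Itga6 (0.938), an integrin chain found on platelets, Ctla2b (0.937), Pcp4l1 (0.927), Fhl1 (0.915), Sh3bgrl2 (0.911) and Clu (0.897).

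Hemoglobin and platelet means went together in blood but less so elsewhere. Over the 16 blood libraries Pearson's r was 0.82 and Spearman's rho 0.73, and r was 0.77 without the 2 libraries farthest from the median of hemoglobin. These libraries fall into the 2 Xist classes, so the value describes that split as much as a gradual relation. Over the 16 epithelial and stromal libraries r was 0.49 and rho 0.54. Hemoglobin and Alas2 had r of 0.92 in blood and 0.91 in tissue, with rho of 0.89 in both.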

How the data were processed

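The authors aligned reads to mm10 (Bowtie2 is the aligner they cite) and deposited, for each of 40 libraries, expected counts per gene, of which 99.6% of the values above 0 were not whole, and RPKM values normalized by gene length and library size. The files of single libraries held the same values as the table of the whole series. Gene symbols of 45143 identifiers were matched through the reference table supplied, and 56 symbols belonged to more than 1 gene. The member genes and gene lists were chosen with earlier results of these data known, and the lists support nothing on their own.

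Expected counts were rounded, which moved a library's total by at most 1105 counts, filtered with filterByExpr, scaled by TMM and tested with edgeR 4.0.16 (robust quasi-likelihood F test, R 4.3.3) over all genes tested, with Benjamini-Hochberg adjustment. Calls needed an adjusted p under 0.05 and a log2 fold change past 1.5 in size, and interactions the adjusted p alone. Shares of all genes printed beside member counts of these fits are shares of calls, and none is given for unadjusted p-values. Of 11 pairwise comparisons and 3 interactions, each used its own groups only. limma 3.58.1 (voom on counts, and log2(RPKM + 1) or log2(RPKM + 0.1)), DESeq2 1.42.0, a fit over all 40 libraries, a replicate block, each library left out in turn and, chosen after seeing the data, a term for the Xist class and the removal of tumor stromal replicates 1 and 2 served as alternatives. The scripts were tested on simulated data. Ratios within the globins used libraries with at least 100 counts in the denominator. Levels are compared between genes in RPKM. Of each list, at most 4 called genes with the largest absolute fold change and a mean log2 CPM of at least 2 could be named, or the most abundant where none was called.

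Depth was 10717873 to 38002939 counts per library (median 16338416). The labels give replicate number 3 to a pair of tumor stromal libraries, the second of which is named 4 here. Same-numbered libraries did not deviate together (correlations of −0.26 to 0.343).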

Additional observations from a re-analysis of the deposited data

Results flagged for a closer look

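Within groups of 4 libraries, 92 sets of values of the 10 genes were searched for a library far from the rest, by Dixon's ratio of the gap to the whole range, and 7 passed, where chance passes about 5%. In tumor neutrophils replicate 1 was the highest for Hbb-bs (44.5 RPKM, the next library at 5.24), Hbb-bt (51.6, next 6.86) and Alas2 (0.850, next 0.0731). The same library had the highest epithelial marker sum of its group, 115 RPKM. In healthy stromal cells replicate 3 was the highest for Hbb-bs (740 RPKM, next 83.8) and Hbb-bt (854, next 99.3). In blood monocytes of healthy mice replicate 4 was the lowest for Ppbp (1.5 RPKM, next 92.6), and it was the only library of that group below 1 RPKM of Xist. In healthy epithelial cells replicate 3 was the highest for Itga2b (0.106 RPKM, next 0.0125), a level of few reads. Since the globin copies share reads, the values of Hbb-bs and Hbb-bt are not separate flags.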

How the results depend on the processing

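Of 1448 alternative values for 82 results, 1293 kept their direction and side of the threshold, 42 lost a call, 44 gained one, 30 changed sign and 39 moved, and 0 called members changed sign. The number of members called changed as follows. The share of all genes called is not given for most of these fits. In tumor against blood neutrophils it was 1, and 9 with DESeq2, 5 over all 40 libraries and 1 to 5 with a library left out (5 without blood neutrophil replicate 1, 2 without tumor neutrophil replicate 1). In tumor against blood monocytes it was 6, and 0 with limma-voom and 6 to 7 with a library left out. There Hba-a1 and Hba-a2 lost their calls with the Xist term, and Hba-a1 and Alas2 on log2(RPKM + 1). In blood neutrophils of tumor-bearing against healthy mice it was 0, and 1 with the Xist term. Between blood neutrophils and monocytes it was 0, and 1 with DESeq2, 2 with the Xist term and 0 to 1 with a library left out in tumor-bearing mice, and 3 with the Xist term in healthy mice. Between tumor neutrophils and monocytes it was 4, and 2 over all 40 libraries, 2 with the replicate block and 2 to 4 with a library left out (2 without tumor monocyte replicate 1, 2 or 4). No Xist term could be fitted there, since all 8 libraries are in 1 class. In tumor against healthy epithelial cells it was 0, and 2 with limma-voom and 4 on log2(RPKM + 1) and on log2(RPKM + 0.1), and in stromal cells 0, and 1 with DESeq2. Between stromal and epithelial cells in tumors it was 0, and 5 with DESeq2, 5 without tumor stromal replicates 1 and 2, and 0 to 5 with a library left out. In healthy colon it was 3, and 1 with limma-voom, 6 with DESeq2, 5 over all 40 libraries, 1 with the replicate block, 5 on both RPKM scales, 1 with the Xist term and 0 to 5 with a library left out. Without the filter for low counts, or without healthy epithelial replicate 1, 3 or 4, Hba-a1 and Hba-a2 lost their calls there. The replicate block left 4 called in tumor against blood monocytes, where Hba-a1 was at −5.65 and not called, and changed no call beyond those named here. The numbers were not shown to pair the libraries as a whole. Over all genes, 5 were called between tumor stromal and epithelial cells, and 0 with limma-voom, 1246 with DESeq2 and 4471 without tumor stromal replicates 1 and 2. The Xist term was chosen from these values, so calls gained with it are no test. The cause of the other changes was not tested.

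Signs changed for members that were not called. With the Xist term Hba-a1 was at 0.29 and Hba-a2 at 0.28 in tumor against blood neutrophils, Hbb-bs at 1.12 in blood monocytes of tumor-bearing against healthy mice (−1.40 to 0.018 with a library left out) and at 1.31 between healthy blood neutrophils and monocytes. In tumor against blood monocytes Pf4 was at −0.063 with limma-voom and −0.022 on log2(RPKM + 0.1) (−0.56 to 0.84 with a library left out), and Itga2b ran from −0.83 to 0.13. Between blood neutrophils and monocytes of tumor-bearing mice Alas2 was at −0.017 with limma-voom, −0.19 and −0.33 on log2(RPKM + 1) and log2(RPKM + 0.1), and −0.080 to 1.15 with a library left out. In healthy mice Hbb-bs was at 0.13 with the replicate block and −0.94 to 0.38 with a library left out. There Alas2 was at −0.70 with limma-voom, −0.40 with the block, −0.25 and −0.89 on the RPKM scales and −0.11 to 1.06 with a library left out, Ppbp at −0.31 and −0.33 on the RPKM scales, and Pf4 at −0.20 with limma-voom and −0.31 and −0.72 on the RPKM scales. With mitochondrial genes left out, the median hemoglobin share was 0.000717% in tumor monocytes, 0.00547% in healthy and 0.0267% in tumor epithelial cells, and with RPKM in place of counts Hbb-bt took 53.7% and Hba-a2 55.1% of their pairs.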
